A study of Homo sapiens with 18 samples.

Results

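The comparison described here is the early transcriptional response of OVCAR-3 cells to i-BET151, taken as the 3 libraries treated for 4 h against the 3 DMSO libraries of the same time. These are 6 of the 18 libraries in the series. OVCAR-3 is an established human cell line used as a model of high-grade serous ovarian cancer. All cells were grown in RPMI medium and treated in stripped medium. The compound group received i-BET151 at 1 µM for 4 h, and the control group received the DMSO vehicle for 4 h. The other libraries were treated with i-BET858, a different BET inhibitor, at 1 µM for 4 h, or with DMSO, i-BET151 or i-BET858 for 24 h, and they are used below only where a 4 h result is set beside them. A single cell line stands behind all values, and the study describes the 3 libraries of a group as biological replicates.

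BET proteins, a small family that includes BRD2, BRD3 and the testis form BRDT, carry tandem bromodomains that bind acetylated lysines on histones. They help to recruit the positive elongation factor P-TEFb, the CDK9 and cyclin T kinase that releases RNA polymerase II from its pause near the start of genes. A BET inhibitor occupies the acetyl-lysine pocket, and HEXIM1, which holds P-TEFb inactive in the 7SK particle, is widely used as a transcript that reports exposure to such compounds. A time of 4 h is short enough that many of the transcripts read out the first wave of changes.

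The 6 libraries held between 27323969 and 37343752 counts. The libraries numbered 3 stood apart in both groups, with 20642 (DMSO) and 18198 (i-BET151) genes detected against 23674 to 24838 in the libraries numbered 1 and 2, so the count of all changed genes and several counts for gene lists are also given without all libraries numbered 3. Markers of serous ovarian epithelium were present in every library. Their sum over 13 genes ran from 10344 to 11418 CPM (counts per 1000000 of the TMM-scaled library) with DMSO and from 10923 to 11705 CPM with i-BET151. The keratin KRT8 held the largest part, at 4724 to 6048 CPM over the 6 libraries. PAX8 read 381 to 511.5 CPM, WT1 109 to 123 CPM, EPCAM 329 to 496 CPM and MUC16 102 to 326 CPM. Of 18 markers of other cell types, 16 stayed under 1 CPM in all 6 libraries (CD14 and VWF did not), CD68 and HBB had no count, and their sum was 3.92 to 7.62 CPM with DMSO and 4.02 to 6.54 CPM with i-BET151. Mitochondrially encoded transcripts took 0.406% to 0.814% of counts with DMSO and 0.760% to 1.02% with i-BET151.

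Of 17192 genes with enough counts to test, 1220 (7.10%) differed between i-BET151 and DMSO at 4 h by at least 2-fold with an adjusted p under 0.05 in edgeR's quasi-likelihood test. Of these, 709 (4.12%) rose and 511 (2.97%) fell, and the words rose and fell are used below only for genes past both limits. Without the fold limit, 1342 genes (7.81%) were higher and 1449 (8.43%) were lower, so the 2-fold limit removed more of the falls than of the rises. The median log2 fold change of all tested genes was 0.01. Only the libraries numbered 1 and 2 gave 1881 changed genes, of which 1127 rose and 754 fell. In bulk RNA, a change in the number of cells of a kind and a change in RNA per cell cannot be told apart, and CPM are shares of a library, so a change common to all transcripts is not visible.

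**Figure D1:**
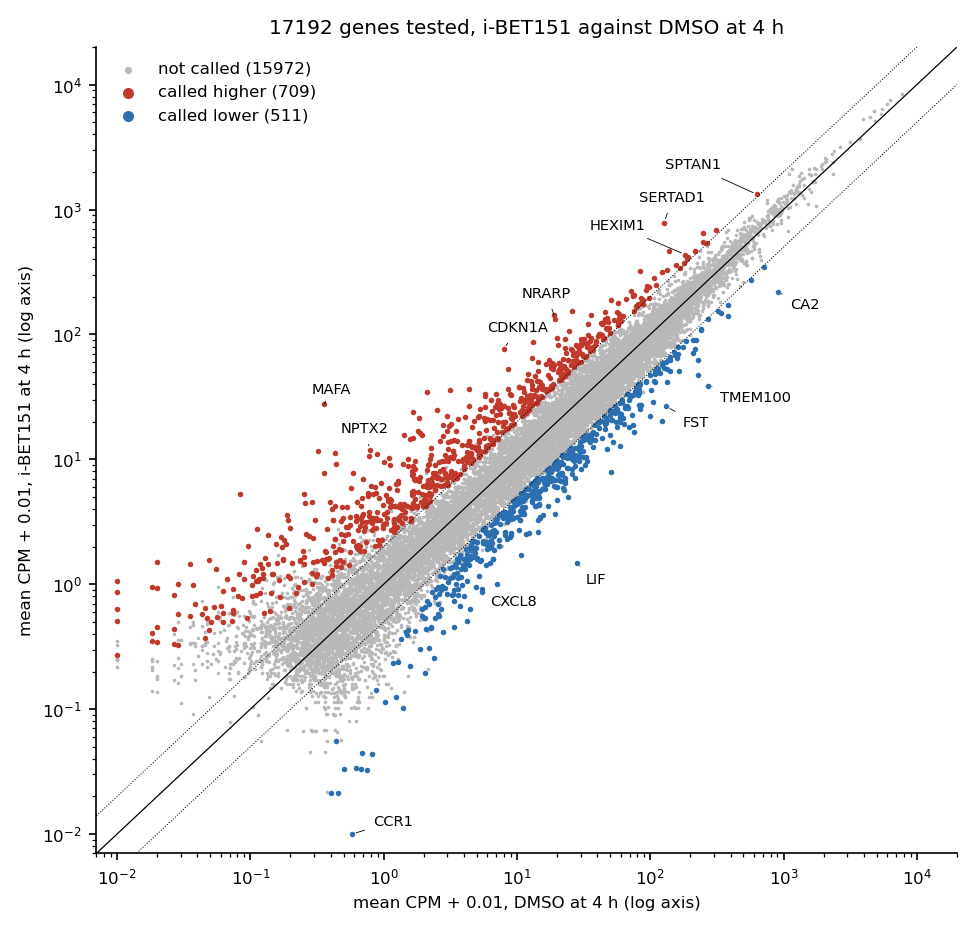
Mean CPM of each of the 17192 tested genes with DMSO (x axis) and with i-BET151 (y axis) at 4 h, both on log axes with 0.01 added so that genes at 0 can be drawn. The solid line marks equal levels and the dotted lines 2-fold differences; the 709 genes that rose (red) lie above the solid line and the 511 that fell (blue) below it, as the calls require, and labels mark genes described in the text.

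By the mean CPM over both groups, 102 genes that rose and 21 that fell lay under 1 CPM, 309 and 229 from 1 to under 10, 257 and 234 from 10 to under 100, and 41 and 27 from 100 to under 1000. None of the 85 genes at 1000 CPM or more was called. There were 114 rises and 17 falls of at least 8-fold, 139 rises and 51 falls of 4 to under 8-fold, and 456 rises and 443 falls of 2 to under 4-fold. These sizes are not compared, since 216 of the rises started from under 1 CPM with DMSO, a baseline from which folds can become large. The genes that rose took 1.14% to 1.16% of all counts in the DMSO libraries and 2.77% to 3.03% in the i-BET151 libraries. The genes that fell went from 1.99% to 2.07% of counts to 0.746% to 0.808%. These shares describe genes chosen by the same contrast and carry no test.

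The 12 largest rises were headed by MAFA. To be ranked, genes had to average at least 1 in log2 CPM over the 6 libraries. They also had to be higher with i-BET151 in 9 of 9 pairings of libraries. The average includes the treated libraries, so genes with few control counts could enter. MAFA (0.35 CPM), ATP1B2 (0.42), DISP3 (0.43), NPTX1 (0.69), GRM2 (0.76), NPTX2 (0.78) and SP6 (0.88) had DMSO means under 1 CPM. The size and rank of their folds are therefore uncertain. MAFA, a basic leucine zipper factor of insulin-producing cells, read 0.635, 0.404 and 0 CPM in DMSO replicates 1, 2 and 3 and 30.6, 28.7 and 23.1 CPM with i-BET151. ATP1B2, a beta subunit of the sodium-potassium pump, read 0.514, 0.480 and 0.276 CPM against 10.7, 11.9 and 10.8 CPM. NGFR, the low-affinity neurotrophin receptor, read 1.84, 1.82 and 1.26 CPM against 22.7, 28.3 and 20.6 CPM. The log2 fold changes of these 3 genes were 6.28 ± 0.48 (SE), 4.70 ± 0.26 and 3.86 ± 0.24, with edgeR adjusted p-values of 1.83e-05, 3.17e-06 and 5.96e-06.

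NPTX2 and NPTX1, secreted neuronal pentraxins, rose by 3.90 ± 0.46 and 3.31 ± 0.32 on the log2 scale, and GRM2, a metabotropic glutamate receptor, by 3.79 ± 0.43. DISP3, a sterol-sensing membrane protein of the Dispatched family, rose by 4.40 ± 0.33. Others of the 12 act in signalling or transcription. RGS2, which speeds the shut-off of G proteins, went from 1.66, 1.69 and 0.86 CPM to 18.9, 16.8 and 11.2 CPM. PAG1, a membrane adaptor for the kinase CSK, went from 1.94, 2.53 and 4.91 CPM to 38.9, 30.1 and 38.3 CPM. SP6, a zinc finger factor of the SP family, rose 12.6-fold and TRIM36, an E3 ubiquitin ligase, 9.75-fold. Annotated antisense genes overlap many genes named here, among them CDKN1A, HEXIM1, BRD2 and KLHL14. BOLA1 (2.24, 2.73 and 1.35 against 56.8, 37.9 and 8.89 CPM) overlaps the histone gene H2AC21 on the opposite strand, and since the strand used in counting is not given in the sources used here, its reads cannot be told apart from those of its neighbour.

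**Figure D2:**
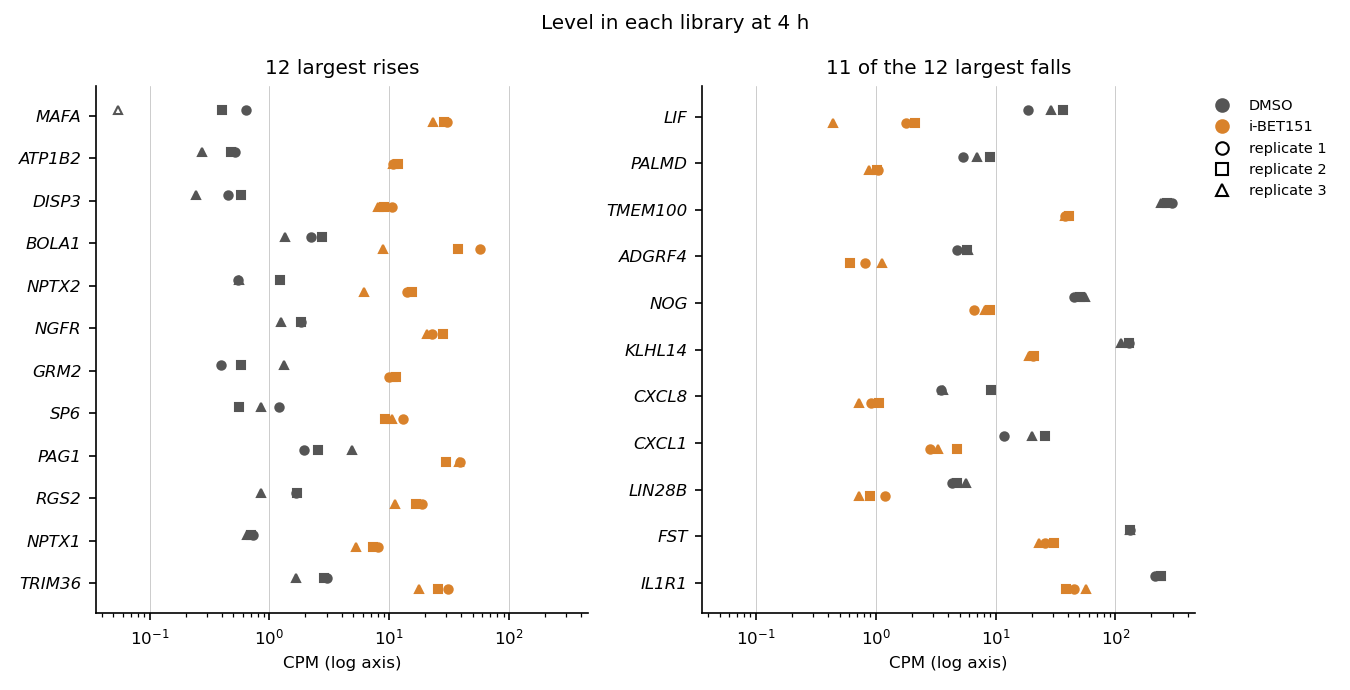
CPM (log axis) of the 12 genes with the largest rise (left) and 11 of the 12 with the largest fall (right) in each of the 6 libraries, DMSO in grey and i-BET151 in orange, with a marker shape for each replicate number. The open symbol for MAFA stands for a library without a count, drawn at a level below the counting floor; the 2 groups are fully separated in every gene drawn, as the choice of genes requires.

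LIF led the 12 largest falls. LIF, a cytokine of the interleukin 6 family (chr22:30240453-30246759 in GRCh38, minus strand), read 18.6, 36.9 and 29.0 CPM with DMSO and 1.80, 2.13 and 0.442 CPM with i-BET151. It fell by 4.29 ± 0.59 on the log2 scale, which is 19.6-fold (edgeR adjusted p = 0.000615), and 2 annotated antisense genes overlap it. TMEM100, a small membrane protein that responds to BMP signalling in endothelium (chr17:55719627-55732121, minus strand), was at 298, 271 and 241 CPM and dropped to 37.7, 41.2 and 37.9 CPM. This fall of 2.79 ± 0.12 on the log2 scale was also 1 of the 10 largest losses in CPM. KLHL14, a Kelch-domain substrate adaptor, read 130.5, 129 and 111 CPM against 20.4, 21.1 and 19.1 CPM.

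The neutrophil chemokines CXCL8 and CXCL1 fell 6.07-fold and 5.31-fold. CXCL8 stood at 3.48, 9.22 and 3.65 CPM against 0.917, 1.07 and 0.718 CPM, and CXCL1 at 11.8, 25.7 and 20.1 CPM against 2.82, 4.76 and 3.29 CPM. In both genes DMSO replicate 2 was the highest library. IL1R1, the signalling receptor for interleukin 1, went from 214, 241 and 234 CPM to 45.1, 38.6 and 57.0 CPM. NOG and FST, secreted antagonists of BMPs and activins, fell 6.37-fold and 4.99-fold. The 12 also held PALMD (7.16-fold), the receptor ADGRF4 (6.38-fold) and LIN28B (5.27-fold), which blocks maturation of let-7 miRNAs.

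The 10 largest gains in absolute CPM among called genes, a ranking that favours abundant and long transcripts by construction, covered genes of several functions. SERTAD1, a CDK4-binding cofactor of E2F (chr19:40421589-40425992, minus strand), combined a high level with a large change, from 137, 128 and 116 CPM to 861, 781 and 710 CPM, a rise of 2.62 ± 0.13 on the log2 scale (edgeR adjusted p = 2.77e-06). SPTAN1, the alpha chain of spectrin, gained 687 CPM on average. POLR2A, the largest subunit of RNA polymerase II, read 229, 202 and 317 CPM against 498, 432 and 730 CPM. NXF1, the mRNA export receptor, rose 3.83-fold, NHERF1, a scaffold of apical membrane proteins, 3.32-fold, and SKI, a repressor of SMAD signalling, 2.60-fold. MKNK2, a kinase of the cap-binding factor eIF4E, rose 2.14-fold, and the linker histone H1-10 rose 2.02-fold. Several of these lie close to the 2-fold limit. SPTAN1 was under it without DMSO replicate 2 (log2 fold change 0.98) or i-BET151 replicate 3 (0.95), POLR2A (0.90) and MKNK2 (0.95) without i-BET151 replicate 3, and H1-10 without DMSO replicate 2 (0.92) or with total library size as scaling (0.96).

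The largest losses in CPM were headed by CA2, a cytosolic carbonic anhydrase, at 996, 1034 and 682 CPM with DMSO against 235, 245 and 176 CPM, a fall of 4.13-fold. CLIC5, a chloride channel family protein, fell 2.74-fold, the circadian repressor BHLHE41 3.60-fold and the deacetylase HDAC7 2.28-fold. CCDC6 fell 2.10-fold. NDST1, HEG1 and DSC2 passed the limits in the fit of all libraries but not in some unblocked fits with 1 library left out. With all libraries and the replicate number as a block they kept their calls. The log2 fold changes were then -1.06, -1.18 and -1.08, with edgeR adjusted p of 1.3e-06, 2.4e-05 and 3.4e-07. NDST1 (2.05-fold lower) lost its call without DMSO replicate 1 or 3 or i-BET151 replicate 1 or 2 (edgeR adjusted p of 0.106 to 0.128). HEG1 (2.21-fold lower) lost it without DMSO replicate 3 or i-BET151 replicate 1 or 2 (0.0729 to 0.0793), and DSC2 (2.09-fold lower), a desmosomal cadherin, without DMSO replicate 3 or i-BET151 replicate 2 (0.0511 to 0.0567).

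Gene lists covering the machinery that BET inhibitors touch and the pathways of this tumour are described next, by the count of tested members that rose or fell and the median, to be read against 4.12% rising, 2.97% falling and a median of 0.01 over all genes. No list was tested as a set.

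**Figure D3:**
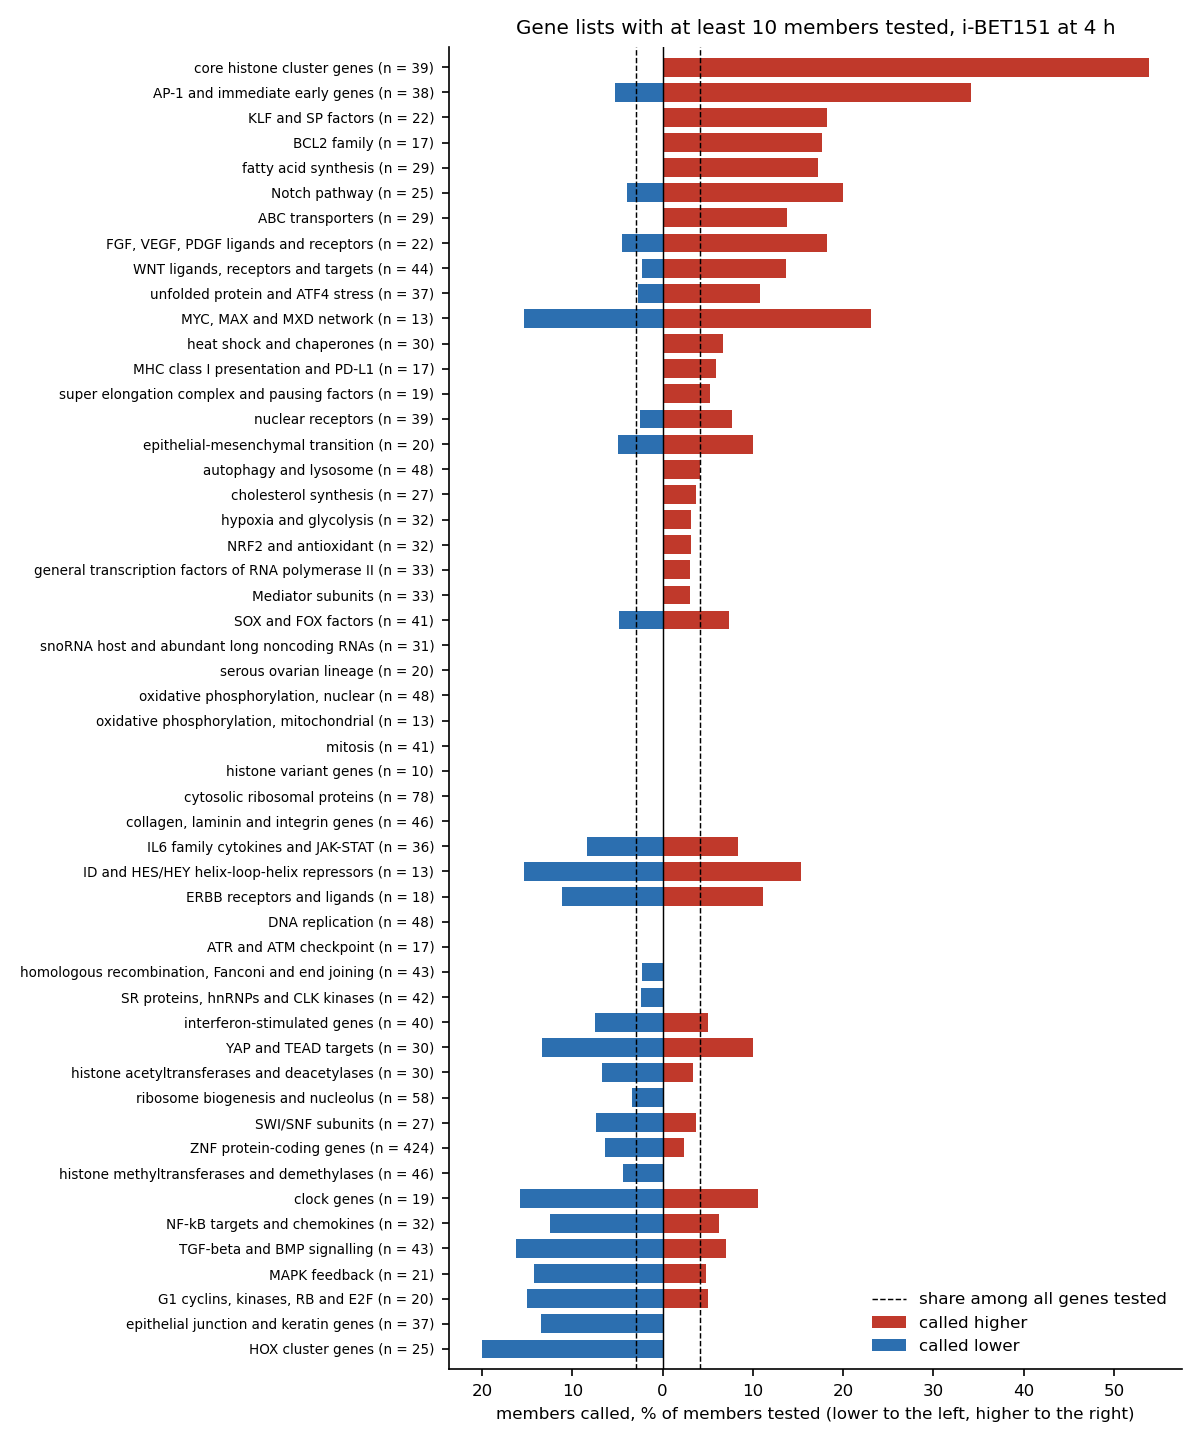
Share of tested members called lower (blue, to the left) and higher (red, to the right) with i-BET151 at 4 h for gene lists with at least 10 tested members, without the single histone families, the transcripts named by the study and 1 further list; n is the number tested and the dashed lines mark the shares among all genes. Core histone genes (21 of 39 higher) and immediate early genes (13 of 38 higher) lie farthest to the right, and HOX genes (5 of 25 lower) farthest to the left among the lists drawn.

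Of the BET genes described here, neither BRD2 nor BRD3 reached the 2-fold limit in edgeR or in DESeq2. BRD2 read 188, 178 and 175 CPM with DMSO and 336, 293 and 283 CPM with i-BET151, a log2 fold change of 0.76 ± 0.11 with an edgeR adjusted p of 0.000694. All treated libraries lay above all controls. BRD3 (log2 fold change 0.13 ± 0.22) had overlapping groups, and BRDT had too few counts to test. Within P-TEFb and the 7SK particle, 1 of 7 members rose. HEXIM1 (chr17:45148475-45152099, plus strand) went from 184, 203 and 161 CPM to 465, 429 and 413 CPM, a rise of 1.25 ± 0.12 on the log2 scale with an edgeR adjusted p of 4.96e-05. The kinase CDK9 (0.21 ± 0.11), its cyclins CCNT1 (0.03 ± 0.18) and CCNT2 (0.00 ± 0.14), LARP7 (-0.45 ± 0.29) and HEXIM2 (-1.21 ± 0.93, under 2 CPM) did not pass. MEPCE, the capping enzyme of 7SK RNA, passed the adjusted p alone at 0.46 ± 0.11.

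Elsewhere in the transcription machinery single members passed both limits, and some others passed the adjusted p alone. ELL2, an elongation factor of the super elongation complex, was the only 1 of 19 such genes to rise, from 21.4, 19.98 and 20.5 CPM to 65.8, 52.96 and 57.7 CPM. GTF2B, the general factor TFIIB, was the only 1 of 33 to rise (35.6, 31.8 and 22.7 against 94.6, 89.7 and 64.1 CPM). MED26, a Mediator subunit, rose 2.12-fold among 33 subunits whose median was -0.33, and was under the fold limit without i-BET151 replicate 3 (log2 fold change 0.91). Among histone-modifying enzymes, HDAC9 (57.1, 56.7 and 51.3 against 20.1, 20.9 and 18.9 CPM) and HDAC7 fell and the deacetylase SIRT1 rose 2.17-fold. Without the libraries numbered 3, with the replicate number as a block or in DESeq2, 2 of 30 acetyltransferases and deacetylases rose. The H3K9 methyltransferases SETDB1 (2.93-fold) and SUV39H1 (2.92-fold) were the 2 of 46 methyltransferases and demethylases that fell, and 4 fell without the libraries numbered 3 or with total library size as scaling. Of 27 SWI/SNF subunits, ARID2 (2.21-fold) and BICRAL (2.26-fold) fell, and BICRAL was under the fold limit without DMSO replicate 3 (log2 fold change -0.97). DPF3, another SWI/SNF subunit and named after its values were seen, rose from a mean of 0.127 to 2.49 CPM.

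Among lists with at least 10 tested members, genes of the histone clusters had the highest share of rises. Core histones package DNA into nucleosomes, and their clustered genes are short, without introns and expressed mainly in S phase. Of 39 core histone genes tested, 21 rose, and no member fell in edgeR or DESeq2 or was lower at an unadjusted p of 0.05. The median log2 fold change was 1.33. Without all libraries numbered 3, 25 rose. Summed over the list, the DMSO libraries held 593, 453 and 357 CPM and the i-BET151 libraries 1240, 1034 and 838 CPM, so the lowest treated library lay above the highest control. Most mRNAs of these genes end in a stem-loop in place of a poly(A) tail, and libraries made by poly(A) selection read only part of them. Reads shared by near-identical copies were not counted by the aligner, so levels of single genes are uncertain.

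The promoters of 6 H2B genes are shown because H2B held the most rises of the 4 families, and each of these 6 holds an octamer. The sequences run from 140 bases before the RefSeq start to 20 bases from it in GRCh38.p14, 5′ to 3′ on the strand of the gene, and capitals mark the octamer ATTTGCAT, the site of OCT factors named for histone H2B genes, and the TATA element TATAAA. H2BC8 covers chr6:26216669-26216828 (minus strand), H2BC11 chr6:27132776-27132935 (minus), H2BC21 chr1:149886663-149886822 (minus), H2BC18 chr1:149812351-149812510 (minus), H2BC6 chr6:26183621-26183780 (plus) and H2BC9 chr6:26251474-26251633 (plus).
H2BC8: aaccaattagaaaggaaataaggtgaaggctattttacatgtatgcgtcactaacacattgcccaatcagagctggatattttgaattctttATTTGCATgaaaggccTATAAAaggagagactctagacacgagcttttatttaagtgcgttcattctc
H2BC11: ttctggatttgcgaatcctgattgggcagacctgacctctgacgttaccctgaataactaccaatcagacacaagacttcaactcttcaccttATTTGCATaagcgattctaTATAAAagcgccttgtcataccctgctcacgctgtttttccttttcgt
H2BC21: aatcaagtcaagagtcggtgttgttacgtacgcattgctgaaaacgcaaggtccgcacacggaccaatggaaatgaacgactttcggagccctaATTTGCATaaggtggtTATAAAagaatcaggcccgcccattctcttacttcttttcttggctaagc
H2BC18: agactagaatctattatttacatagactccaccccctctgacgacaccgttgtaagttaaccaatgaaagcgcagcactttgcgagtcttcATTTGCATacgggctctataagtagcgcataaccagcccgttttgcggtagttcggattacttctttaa
H2BC6: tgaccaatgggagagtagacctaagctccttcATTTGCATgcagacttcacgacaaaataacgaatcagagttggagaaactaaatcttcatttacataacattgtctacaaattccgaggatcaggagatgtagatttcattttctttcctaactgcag
H2BC9: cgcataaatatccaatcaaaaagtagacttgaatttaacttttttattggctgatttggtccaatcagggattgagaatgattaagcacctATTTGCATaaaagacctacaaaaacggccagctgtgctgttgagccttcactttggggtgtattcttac

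In the first 4 of these promoters and in H2BC9 the octamer starts 46 to 49 bases before the start, and in H2BC6 108 bases before it. A TATA element follows it in H2BC8, H2BC11 and H2BC21, beginning 32, 28 and 30 bases before the start. H2BC6 (7.50, 7.55 and 3.93 against 32.8, 30.4 and 26.5 CPM) and H2BC18 (3.93, 3.31 and 2.82 against 16.6, 14.2 and 11.9 CPM) had the largest rises in the family, 4.71-fold and 4.23-fold. H2BC8 went from 23.6, 19.9 and 10.04 CPM to 70.9, 60.6 and 37.6 CPM, and H2BC21 from 94.7, 89.0 and 58.4 CPM to 222.6, 182 and 123.5 CPM. H2BC9, with the octamer at the same distance, did not pass: it read 2.18, 2.98 and 2.61 CPM against 9.92, 10.7 and 2.65 CPM, with i-BET151 replicate 3 inside the control range (edgeR adjusted p = 0.0619). The treated library was still higher for H2BC9 in each pair of the same number. Among the H2B genes not shown, H2BC5 and H2BC15 rose with no octamer in their promoters, H2BC4 and H2BC7 rose with it 123 and 111 bases before the start, and H2BC12 was not called with it 46 bases and TATAAA 27 bases before the start. Over 300-base promoters searched on both strands, 13 of 16 H2B and 10 of 14 H2A promoters held the octamer, against 1 of 11 H3 and 0 of 11 H4 promoters. Many H2A and H2B genes stand back to back, so that both windows can hold the same octamer. The H3 promoter that held it, listed for H3C4, covers the same window as the promoter listed for H2AC7.

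**Figure D4:**
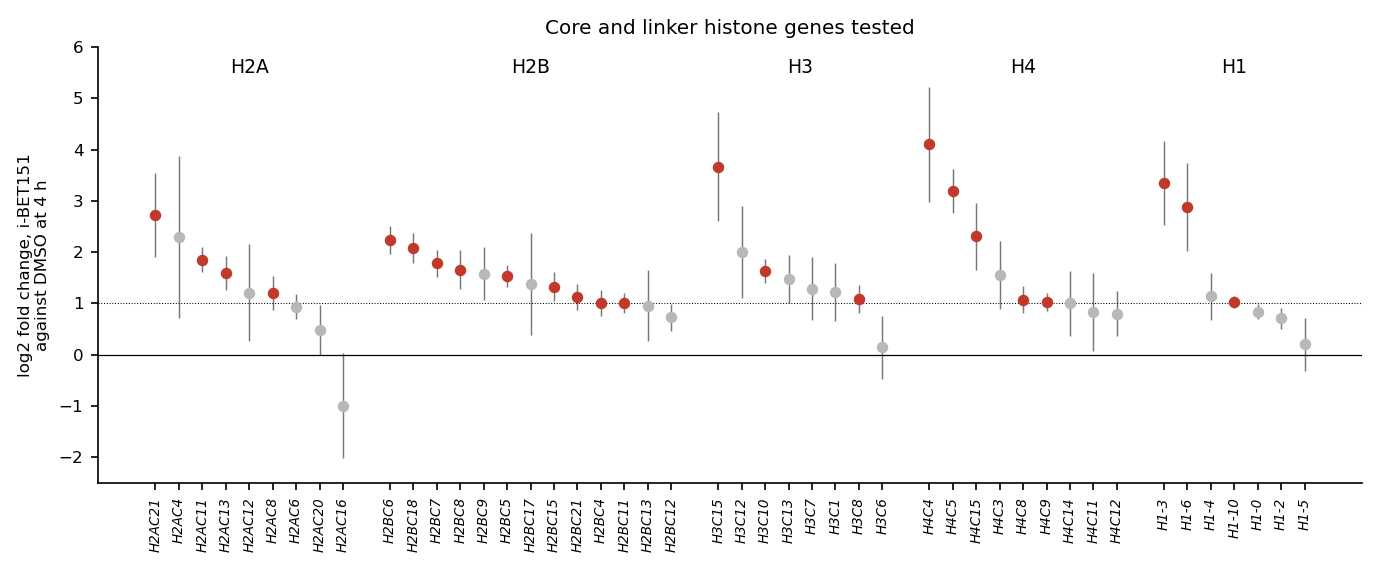
Log2 fold change (i-BET151 against DMSO at 4 h) of each tested core and linker histone gene, by family, with bars of 1 SE; red points rose, grey points did not pass, and the dotted line marks 2-fold. All but H2AC16 lie above 0, and H2B holds 9 rises among 13 genes.

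By family, 4 of 9 H2A, 9 of 13 H2B, 3 of 8 H3 and 5 of 9 H4 genes rose, with medians of 1.20, 1.37, 1.38 and 1.07. Among these rises H2AC21, H3C15, H4C4 and H4C15 lay outside the naming rule and near the floor. Their means were 0.23, 0.05, 0.08 and 0.16 CPM with DMSO and 1.53, 0.66, 1.49 and 0.78 CPM with i-BET151. H2AC21 read 0.276 CPM in replicate 3 of both groups, and it overlaps BOLA1. Of the H2B genes 10 rose with the replicate number as a block or in DESeq2, and 7 with total library size as scaling. Of the H3 genes 5 rose with the replicate number as a block, and 6 without the libraries numbered 3. H4C5 showed the largest rise among members within the naming rule, from 1.51, 1.67 and 1.53 CPM to 18.1, 16 and 9.25 CPM (9.16-fold). Rises were found in all 4 families, and the part of the octamer in them was not tested. Of 7 linker histone H1 genes, 3 rose and the median was 1.02. Beside H1-10, these were H1-3 and H1-6, outside the naming rule, with means of 0.09 and 0.11 CPM against 0.98 and 0.85 CPM. The list of histone variant genes had a smaller median, 0.47. None of 10 passed the fold limit in edgeR or DESeq2, 7 were higher and 1 lower at an unadjusted p of 0.05, and 5 passed the adjusted p. Without the libraries numbered 3, 1 of them rose. H3-3B, the most abundant of them, read 1186, 1079 and 1026.5 CPM against 2036, 1895.5 and 1883 CPM, a log2 fold change of 0.82 ± 0.09.

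Transcripts used elsewhere as markers of BET inhibition and those singled out in the study's own text, a list that is therefore not independent of these libraries, ran in both directions. Of 5 response markers, 3 rose and 2 fell. SERPINI1, a serine protease inhibitor of neurons, read 1.57, 2.02 and 1.35 CPM against 20.6, 18.2 and 5.38 CPM, and ZCCHC24, a zinc finger protein, 3.33, 4.12 and 5.71 CPM against 37.5, 34.1 and 37.6 CPM. ZMYND8, a reader of acetylated histones, went from 33.3, 31.8 and 32.0 CPM to 8.39, 7.07 and 11.6 CPM. Of 17 transcripts named by the study, 4 rose and 6 fell. MAP3K3, a kinase upstream of ERK5, rose 2.80-fold and the repressor ZHX2 fell 3.19-fold, while SMAD4 (-0.28 ± 0.11), PSMB5 (-0.14 ± 0.11) and E4F1 (0.23 ± 0.14) did not pass.

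Cell cycle genes are described list by list, with the CDK inhibitors first. CDKN1A, which encodes the CDK inhibitor p21 (chr6:36676460-36687337, plus strand), read 9.41, 9.55 and 4.88 CPM with DMSO and 91.3, 73.7 and 63.6 CPM with i-BET151. It rose by 3.26 ± 0.26 on the log2 scale, or 9.56-fold (edgeR adjusted p = 2.31e-05). CDKN2D rose 2.14-fold and CDKN2B 2.06-fold, so that 3 of 7 CDK inhibitors tested rose and the list median was 0.46. CDKN2B, the gene of p15, lay at the limit and was under it without DMSO replicate 2 (log2 fold change 0.99) or i-BET151 replicate 1 (0.90) and with total library size as scaling (0.99). CDKN1B (-0.16 ± 0.14), CDKN1C (0.46 ± 0.24), CDKN2A (0.17 ± 0.11) and CDKN2C (-0.09 ± 0.20) did not pass.

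The promoters of 3 genes that rose are shown beside these values because CDKN1A and HEXIM1 are often used to follow BET inhibition and SERTAD1 was among the largest gains in CPM, and 2 of the 12 largest falls are shown with them. Capitals mark GGGCGG (or its complement CCGCCC), the core of SP family sites, TATAAA, and in CXCL8 the AP-1 site TGACTCA. The windows are chr6:36678574-36678733 for CDKN1A (plus strand), chr17:45148335-45148494 for HEXIM1 (plus), chr19:40425973-40426132 for SERTAD1 (minus), chr4:73740429-73740588 for CXCL8 (plus) and chr5:53480489-53480648 for FST (plus), and CDKN1A has several annotated starts, of which the first listed was used.
CDKN1A: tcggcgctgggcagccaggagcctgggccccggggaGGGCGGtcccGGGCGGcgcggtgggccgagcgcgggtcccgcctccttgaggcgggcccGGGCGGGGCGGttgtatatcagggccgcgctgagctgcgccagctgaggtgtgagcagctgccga
HEXIM1: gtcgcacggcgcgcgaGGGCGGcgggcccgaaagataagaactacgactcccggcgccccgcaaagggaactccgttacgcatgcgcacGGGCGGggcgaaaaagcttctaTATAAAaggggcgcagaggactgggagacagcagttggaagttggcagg
SERTAD1: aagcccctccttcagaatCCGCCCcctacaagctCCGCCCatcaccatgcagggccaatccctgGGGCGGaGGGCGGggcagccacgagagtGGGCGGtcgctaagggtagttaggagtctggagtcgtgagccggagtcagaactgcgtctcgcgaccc
CXCL8: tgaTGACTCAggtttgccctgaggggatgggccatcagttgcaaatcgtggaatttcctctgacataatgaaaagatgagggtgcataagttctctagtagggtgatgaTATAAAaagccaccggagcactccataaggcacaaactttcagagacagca
FST: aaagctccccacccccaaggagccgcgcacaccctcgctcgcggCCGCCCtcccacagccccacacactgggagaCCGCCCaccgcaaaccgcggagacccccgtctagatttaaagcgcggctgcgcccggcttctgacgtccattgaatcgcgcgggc

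Across all tested genes, 12032 (70.0%) had a RefSeq promoter of 300 bases, 497 of them risen and 377 fallen. GGGCGG was found in 77.1% of promoters of genes that rose, 54.4% of those that fell and 69.1% of all. TATAAA was found in 12.7%, 6.90% and 6.11%, and in 10.1% of the risen genes once histone genes were left out. CCAAT, the site of the factor NF-Y, stood in 46.5%, 31.8% and 36.4%. CGGAAG, the core of ETS family sites, was rarer in both groups than in all promoters, at 62 of 497, 79 of 377 and 3700 of 12032 promoters. The octamer ATTTGCAT stood in 4.23%, 1.86% and 1.35%, and in 2.33% of risen genes without the histone genes. TGACTCA, the AP-1 site, was found in 2.41%, 5.84% and 3.15%, the E-box CACGTG in 7.85%, 8.75% and 9.75%, and the CRE site TGACGTCA in 3.42%, 2.92% and 3.15%. The median GC content was 68.3% for genes that rose, 62.0% for those that fell and 65.3% for all, and its part in the motif shares was not tested. These are descriptions of letters, with both strands searched and no test.

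Of the 20 G1 cyclins, kinases, RB and E2F genes, with a median of -0.17, CCNE2, a cyclin of S-phase entry, rose 2.33-fold and E2F2, E2F5 and E2F8 fell. E2F8 read 31.5, 29.8 and 32.3 CPM against 15.2, 15.5 and 14.5 CPM and kept its call in every alternative run. CCNE2 was under the fold limit without all libraries numbered 3 (log2 fold change 0.96). E2F2 lost its call without DMSO replicate 3 or i-BET151 replicate 1 (edgeR adjusted p of 0.0506 and 0.0539), and E2F5 without DMSO replicate 1 or 2 or i-BET151 replicate 1 or 3 (0.0636 to 0.135), besides being under the fold limit without the libraries numbered 3. CCND1 (-0.63 ± 0.15) and CDK6 (-0.69 ± 0.16), named after their values were seen, passed the adjusted p but not the fold limit.

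Genes of DNA replication and mitosis did not reach 2-fold at this time. Among 48 replication genes none was called by edgeR or DESeq2, 6 were higher and 11 lower at an unadjusted p of 0.05, and the median was -0.07. With total library size as scaling 1 fell. TK1, thymidine kinase and the most abundant of them, had a log2 fold change of 0.58 ± 0.14. Among 41 mitosis genes none was called by either tool, with 4 higher and 6 lower at an unadjusted p of 0.05. In the ATR and ATM checkpoint, none of 17 was called by either tool and 3 were higher and 4 lower at the unadjusted p, while 1 fell with total library size as scaling. H2AX, the histone variant phosphorylated at DNA breaks, lay just under the limit at 252, 224 and 236 CPM against 446, 480 and 469 CPM (log2 fold change 0.97 ± 0.09), and passed it without DMSO replicate 1 (1.01). TOPBP1, an activator of ATR, was lower by just under 2-fold (-0.96 ± 0.12), and passed the limit with total library size as scaling (-1.01) or without DMSO replicate 1 (-1.04). Of 43 genes of homologous recombination, Fanconi anaemia and end joining, 37 had a log2 fold change below 0 and 1, RAD51D, fell (2.30-fold). RAD51D lost its call without any 1 of DMSO replicates 1 and 2 or i-BET151 replicates 1, 2 and 3 (edgeR adjusted p of 0.0520 to 0.0919). In this list 3 members fell without the libraries numbered 3, and 3 with total library size as scaling.

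In a list of 26 genes induced by DNA damage and acting in growth arrest, apoptosis and repair, 4 rose, 2 fell and 20 were not called, with a median of 0.32. Those that rose were TIGAR (3.35-fold), which lowers glycolytic flux, SESN2 (3.34-fold), an inhibitor of mTORC1, the translesion polymerase POLH (2.59-fold) and, outside the naming rule, FDXR. Those that fell were the death receptor FAS (2.87-fold) and PHLDA3 (2.11-fold), a repressor of AKT. FAS lost its call without DMSO replicate 2 or i-BET151 replicate 1 or 2 (edgeR adjusted p of 0.0523 to 0.109). MDM2, an E3 ubiquitin ligase, named after its values were seen, was at -0.92 ± 0.22.

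In the BCL2 family, 3 of 17 members rose, and all 3 encode pro-apoptotic BH3-only proteins. None fell and the median was 0.04. With total library size as scaling 2 rose and 1 fell and the median was -0.04, and with the replicate number as a block 2 rose and the median was -0.03. BCL2L11, the gene of BIM, read 39.7, 36.4 and 39.6 CPM against 91.8, 76.0 and 78.8 CPM. BIK (2.35-fold) lost its call without DMSO replicate 1 (edgeR adjusted p = 0.05004) or DMSO replicate 2 (0.05005). PMAIP1, the gene of NOXA, lay at the limit (2.03-fold, log2 fold change 1.02) and was under it with the replicate number as a block (0.99), with total library size as scaling (0.97) and without DMSO replicate 3 or i-BET151 replicate 1 or 2 (0.85 to 0.96). BCL2L1, the gene of the anti-apoptotic BCL-XL, was lower at -0.94 ± 0.12, from 182, 167 and 175 CPM to 86.8, 99.0 and 87.0 CPM, and passed the limit without i-BET151 replicate 2 (-1.01).

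In the MYC, MAX and MXD network, 3 of 13 members rose and 2 fell, with a median of 0.28. MYC itself read 28.0, 23.5 and 29.2 CPM with DMSO and 19.1, 23.6 and 19.7 CPM with i-BET151, so the groups overlapped and the log2 fold change of -0.37 ± 0.15 did not pass (edgeR adjusted p = 0.119). With the replicate number as a block the log2 fold change was -0.37 (edgeR adjusted p = 0.0426), still short of the fold limit. MXD1 (11.7, 12.98 and 11.02 against 34.4, 31.8 and 31.1 CPM) and MXD3 (2.75-fold), which compete with MYC for MAX, rose. MYCN was near 1 CPM and fell 3.82-fold, a call lost without any 1 of the DMSO libraries or i-BET151 replicates 1 and 2 (edgeR adjusted p of 0.0560 to 0.0996). MGA, a MAX partner, fell 2.02-fold and was under the fold limit without DMSO replicate 2 or 3 or i-BET151 replicate 1 or 2 (log2 fold change -0.99 to -0.97), and also with at least 10 counts required in every library. MLXIPL, a glucose-sensing member of the same family outside the naming rule, also rose.

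Immediate early genes had the next highest share of rises among lists with at least 10 tested members. They encode AP-1 subunits and other factors that cells transcribe within minutes of a stimulus from already poised promoters. Of 38 tested, 13 rose and 2 fell, with a median of 0.60. KLF2 rose 4.25-fold, IER5 read 48.5, 51.2 and 41.6 CPM against 141, 142 and 124 CPM, and JUND, an AP-1 subunit, 91.8, 80.9 and 111 CPM against 240.4, 203 and 288 CPM. Outside the naming rule, FOS (1.28 ± 0.19), FOSB (1.34 ± 0.34), EGR1 (1.01 ± 0.22) and KLF4 (1.10 ± 0.18) were among those that rose. NR4A2, an orphan nuclear receptor, fell 2.23-fold while its paralogue NR4A3 rose from a mean of 0.782 to 3.20 CPM. NR4A2 lost its call without DMSO replicate 2 or i-BET151 replicate 1 or 3 (log2 fold change -1.14 to -0.93). ZFP36L1, which binds AU-rich elements to destabilise mRNAs, fell 2.17-fold.

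HOX genes encode homeodomain factors that set positional identity along the body axis and the genital tract. Of 25 tested, 5 fell, 20 were not called and none rose in edgeR or DESeq2 or was higher at an unadjusted p of 0.05; 21 had a log2 fold change below 0 and the median was -1.02. With the replicate number as a block 9 fell, and without the libraries numbered 3 8 fell. HOXA3 read 29.9, 36.2 and 40.2 CPM against 14.1, 14.6 and 12.6 CPM (2.57-fold lower) and kept its call in every alternative. HOXB4 (2.27-fold lower) lost it without DMSO replicate 2 or 3 or i-BET151 replicate 1 (edgeR adjusted p of 0.0564 to 0.0811), and HOXC6 (2.78-fold lower) without any 1 of the DMSO libraries or i-BET151 replicates 1 and 2 (0.0864 to 0.115). Several antisense genes overlap the HOX clusters, HOXA3 among them.

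Of 13 ID and HES/HEY helix-loop-helix repressors, 2 rose and 2 fell (median 0.11). HES6 (8.50, 10.1 and 7.06 against 59.5, 65.8 and 34.5 CPM) and HES2 (2.89-fold) rose, while BHLHE40 (2.27-fold) and BHLHE41 fell. The last pair also represses clock genes, and in the clock list, where 2 of 19 rose and 3 fell (median -0.16), PER1 (2.65-fold) and NFIL3 (2.27-fold) rose and CLOCK itself fell 2.16-fold. Of 41 SOX and FOX factors 3 rose and 2 fell (median -0.29). SOX13 rose 2.91-fold and FOXD1 2.50-fold, SOX5 fell 2.13-fold, and FOXJ2 fell 2.06-fold but was under the fold limit without DMSO replicate 3 (log2 fold change -0.92) or without all libraries numbered 3 (-0.91). The vitamin D receptor VDR rose from 38.6, 39.2 and 53.1 CPM to 117, 116 and 133 CPM, 1 of 3 nuclear receptors of 39 to rise, while 1 fell, or 3 without the libraries numbered 3, and the median was -0.31.

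Identity genes of the serous lineage did not pass. None of 20 was called by edgeR or DESeq2, 2 were lower and none higher at an unadjusted p of 0.05, and the most abundant, CRABP2, read 657, 671 and 656 CPM against 699.8, 804 and 709 CPM. PAX8 (-0.05 ± 0.13) and WT1 (-0.09 ± 0.12) were close to 0. In the list of junction and keratin genes, 5 of 37 fell and none rose in either tool, with 2 higher at an unadjusted p of 0.05. CLDN1, a tight junction protein, read 168, 195 and 193 CPM against 84.0, 87.0 and 94.7 CPM. KRT16 fell 3.12-fold, and KRT80 (2.15-fold) was under the fold limit without DMSO replicate 1 (log2 fold change -0.98). Of 20 epithelial-mesenchymal transition genes, 2 rose, 1 fell and 17 were not called, with a median of 0.01. In this list 1 rose with total library size as scaling, and 3 rose without the libraries numbered 3. SNAI1, a repressor of E-cadherin, rose 2.75-fold and OVOL2, a repressor of mesenchymal genes, fell 2.92-fold. None of 46 collagen, laminin and integrin genes was called by either tool, and 4 were higher and 2 lower at the unadjusted p. With total library size as scaling 1 fell, and without the libraries numbered 3 1 rose and 1 fell.

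TGF-beta and BMP signalling was among the lists with the most falls. These ligands signal through paired receptors to SMAD factors, and secreted antagonists and pseudoreceptors limit them. Of 43 members, 7 fell and 3 rose, with a median of -0.21. The antagonists NOG (45.0, 50.8 and 55.3 against 6.56, 8.92 and 8.23 CPM) and FST (132, 132 and 133 against 26.1, 30.5 and 22.8 CPM) fell, while the pseudoreceptor BAMBI rose from 3.39, 3.01 and 2.82 CPM to 21.1, 19.6 and 14.3 CPM. The activin subunit INHBB fell 4.498-fold and TGFB2 2.61-fold, and outside the naming rule the receptors TGFBR2 (-1.25 ± 0.16), ACVR2B (-1.64 ± 0.17) and BMPR1B (-1.13 ± 0.26) fell. BMP6 rose 3.72-fold.

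In the Notch pathway 5 of 25 members rose, 1 fell and 19 were not called, with a median of 0.21. NRARP, a feedback inhibitor that Notch activates, read 20.7, 23.4 and 14.03 CPM against 158, 138 and 104 CPM, a rise of 2.78 ± 0.23 on the log2 scale. LFNG, a glycosyltransferase that modifies Notch receptors, rose 3.13-fold and NOTCH1 2.57-fold, and the ligands DLL4 (from a mean of 0.349 to 7.70 CPM) and JAG2 (18.4 to 37.5 CPM), named after their values were seen, rose with them. The coactivator MAML2 fell 2.65-fold.

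Of 44 WNT pathway genes, 6 rose and 1 fell, with a median of 0.03. The receptor FZD9 (2.21, 3.76 and 2.95 against 19.3, 23.8 and 23.2 CPM), the inhibitor NKD1 (4.98-fold) and the ligand WNT9A (3.84-fold) led the rises. WNT5A, a ligand of noncanonical signalling, fell from 48.8, 50.5 and 77.0 CPM to 11.9, 11.4 and 15.2 CPM. With the replicate number as a block 2 members fell, and without the libraries numbered 3 5 rose and 5 fell.

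Single growth factor ligands and receptors were called in both directions. PGF, placental growth factor, read 2.03, 2.15 and 1.38 CPM against 21.5, 15.4 and 11.9 CPM. Its receptor family member KDR (4.51-fold) and the FGF receptors FGFR3 (11.2, 24.9 and 23.6 against 105, 114 and 59.6 CPM) and, outside the naming rule, FGFR1 rose, and PDGFC fell 2.20-fold. In that list of 22, 4 rose and 1 fell (median 0.23), and 2 members fell without the libraries numbered 3, with the replicate number as a block, with total library size as scaling or in DESeq2. In the ERBB family 2 of 18 rose and 2 fell (median -0.18). The ligand HBEGF (7.65, 6.90 and 6.85 against 28.8, 24.9 and 29.5 CPM) and ERRFI1, an intracellular inhibitor of EGFR, rose, while the ligand NRG1 (15.2, 23.4 and 25.2 against 5.504, 7.04 and 7.57 CPM) and LRIG3 (2.08-fold) fell. Among 21 MAPK feedback genes, with a median of 0.02, ETV5 rose 3.55-fold and SPRY1 (3.94-fold), SPRED3 (2.30-fold) and DUSP8 (2.08-fold) fell. DUSP8 lost its call without DMSO replicate 3 or i-BET151 replicate 1 (edgeR adjusted p of 0.0584 and 0.0579) and was under the fold limit without the libraries numbered 3 (log2 fold change -0.95), where 2 members of the list rose.

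Among inflammatory genes, the list of NF-kB targets and chemokines held more falls than rises. Of its 32 tested members, 4 fell, 2 rose, 25 had a log2 fold change below 0 and the median was -0.46. The falls numbered 6 without the libraries numbered 3 or in DESeq2, and 5 with the replicate number as a block. Beside CXCL8 and CXCL1, CXCL2 (outside the naming rule) and CCR1 fell. CCR1, a chemokine receptor, had 29, 17 and 13 counts with DMSO and none in the i-BET151 libraries, which is at least 5.78-fold lower against a floor of 3 counts per library, averaged over the treated libraries as 0.0983 CPM. Its call was lost without DMSO replicate 1 or 2 or i-BET151 replicate 1 or 2 (edgeR adjusted p of 0.0614 to 0.0963). NFKBIE (3.42-fold), an inhibitor of NF-kB, and NFKBIZ (2.13-fold), a nuclear IkB protein that can act as a coactivator, rose, and NFKBIZ was under the fold limit without DMSO replicate 1 (log2 fold change 0.90). NFKBIA (0.14 ± 0.14) and TNFAIP3 (-0.04 ± 0.20), named after their values were seen, stayed near 0.

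In the IL6 and JAK-STAT list 3 of 36 rose and 3 fell (median 0.08). SOCS1, a feedback inhibitor of JAKs, rose from 2.51, 2.22 and 1.90 CPM to 11.3, 11.3 and 7.23 CPM and the kinase PIM2 2.61-fold, while the cytokines LIF and CLCF1 (2.94-fold) fell. BCL3 (2.19-fold lower) lost its call without DMSO replicate 3 or i-BET151 replicate 1 or 2 (edgeR adjusted p of 0.0650 to 0.0683). Interferon-stimulated genes held calls in both directions, with IRF7 (11.6, 9.80 and 9.42 against 42.7, 44.4 and 25.9 CPM) higher and IFIT3 (9.92, 8.92 and 7.95 against 1.495, 2.20 and 3.48 CPM) lower, 2 rises and 3 falls among 40 with a median of -0.11. There were 1 rise and 5 falls with total library size as scaling, and 1 rise and 4 falls without the libraries numbered 3. HERC5, the other rise (2.08-fold), lost its call without DMSO replicate 2 or 3 or i-BET151 replicate 1 or 2 (edgeR adjusted p of 0.0635 to 0.0939), and was under the fold limit without the libraries numbered 3 (log2 fold change 0.99) or with total library size as scaling (0.9993). HLA-E, a nonclassical MHC class I gene, rose 2.06-fold and was under the limit without DMSO replicate 1 (log2 fold change 0.97) or i-BET151 replicate 3 (0.94) and with total library size as scaling (0.98). Of 30 YAP and TEAD targets 3 rose and 4 fell (median -0.07). GADD45B rose 3.59-fold and ANKRD1 fell 3.39-fold, and CCN1 (2.10-fold higher) was under the limit without DMSO replicate 2 (0.96) or i-BET151 replicate 3 (0.96).

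Stress lists held 1 to 4 rises each, and their medians were positive. The median was 0.29 for the unfolded protein and ATF4 list, 0.28 for chaperones and 0.24 for the NRF2 list. It was 0.18 for hypoxia and glycolysis and 0.17 for autophagy. The log2 fold change was positive in 26 and negative in 11 unfolded protein and ATF4 genes. These counts were 25 and 5 for chaperones, 21 and 11 for NRF2, 26 and 6 for hypoxia and 36 and 12 for autophagy. Of 37 genes of the unfolded protein and ATF4 responses, ERN1, the sensor IRE1 (2.97-fold), ATF3 (2.51-fold), SESN2 and DDIT4 rose and TRIB3, a pseudokinase induced by ATF4, fell 2.23-fold. DDIT4, an mTORC1 inhibitor outside the naming rule, read 8.44, 5.002 and 6.23 CPM against 17.2, 10.3 and 12.5 CPM, and its call was lost without DMSO replicate 2 or 3 or i-BET151 replicate 1 (log2 fold change 0.80 to 0.99) and with total library size as scaling (0.97). ATF4 itself was at 0.41 ± 0.19. The chaperone HSPA2 rose 2.73-fold and the co-chaperone BAG3 from 88.3, 104 and 86.0 CPM to 217, 221 and 248 CPM, 2 of 30 chaperone genes. HMOX1, haem oxygenase, was the only 1 of 32 NRF2 and antioxidant genes to rise (4.03-fold), EPAS1, which encodes HIF-2 alpha, the only 1 of 32 hypoxia and glycolysis genes (3.04-fold), and in the autophagy list MAP1LC3B rose 2.42-fold. Without the libraries numbered 3, 6 genes of the unfolded protein and ATF4 list rose, and in the NRF2 list 2 rose and 1 fell. With total library size as scaling, 1 gene of the NRF2 list rose and 1 fell. MAP1LC3B2, a near-identical gene, also rose (2.07-fold) and was under the limit without DMSO replicate 1 (log2 fold change 0.96) or i-BET151 replicate 2 (0.92) and with total library size as scaling (0.99).

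Among lipid genes, 5 of 29 fatty acid synthesis genes rose and none fell in edgeR or DESeq2 or was lower at an unadjusted p of 0.05, with ELOVL4 (3.68-fold), ELOVL7 (2.18-fold), both elongases of very long chain fatty acids, and DGAT1 (2.31-fold), the last step of triglyceride synthesis, among them. The cholesterol exporter ABCG1 rose 2.71-fold, the only 1 of 27 genes of the cholesterol list. ABCB9, a lysosomal peptide transporter, rose 2.04-fold but was under the limit without DMSO replicate 3 (log2 fold change 0.99) or i-BET151 replicate 3 (0.98), without the libraries numbered 3 (0.94), and with total library size as scaling (0.96).

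Lists of ribosome and respiration genes held few or no calls. None of 78 cytosolic ribosomal protein genes was called by edgeR or DESeq2, yet all 78 had a log2 fold change above 0 (0.09 to 0.66), 24 of them at an unadjusted p of 0.05 and 10 at the adjusted p. Their sum was 65548, 58322 and 68710 CPM with DMSO and 73318, 71990 and 82913 CPM with i-BET151. RPS3 had a log2 fold change of 0.25 ± 0.07. Ribosome biogenesis genes lay on the other side, with 24 of 58 lower and 4 higher at an unadjusted p of 0.05 and a median of -0.25. In this list 2 members fell: UTP18 and RRS1 fell 2.07-fold and 2.04-fold, and were under the limit without DMSO replicate 2 (-0.96) or i-BET151 replicate 1 (-0.9986) and without DMSO replicate 1 (-0.96), respectively. Among nuclear genes of oxidative phosphorylation none of 48 was called by either tool and 12 were higher and 2 lower at the unadjusted p. The 13 mitochondrially encoded genes had a median of 0.60, none called by either tool and 5 higher at the unadjusted p. MT-CO1 read 795, 1370 and 1874 CPM against 1473, 1909.5 and 2480.2 CPM, so the groups overlapped, while the treated library was higher in each of the 3 pairs of the same number. The log2 fold change of MT-CO1 was 0.54 (edgeR adjusted p = 0.2612) and, with the replicate number as a block, 0.58 (0.0004349). The sums over the 13 genes were 3492, 5885 and 7181 CPM with DMSO and 6708, 8648 and 9626 CPM with i-BET151, also higher in each pair. Of 42 SR proteins, hnRNPs and CLK kinases, 1 fell: SRSF8, a splicing factor, read 44.7, 43.98 and 45.7 CPM against 22.1, 22.6 and 21.4 CPM, and was under the fold limit without the libraries numbered 3. In this list 2 members fell with the replicate number as a block, with total library size as scaling or in DESeq2.

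Gene structure went with the share of genes that rose. Among protein-coding genes, 13.9% of the 353 with a single exon block rose, 9.99% of those with 2 to 3, 4.499% with 4 to 9 and 3.26% with 10 or more. Without the histone lists 10.3% of 319 single-block genes rose. The share falling ranged from 4.53% for a single block and 5.23% for 2 to 3 to 2.58% for 10 or more. Genes spanning under 5000 bases rose in 9.06% of cases against 3.94% for those of 100000 bases or more. Long noncoding genes rose in 2.96% and fell in 2.36% of 1823 cases, and processed pseudogenes in 0.532% and 0.266% of 752. Exon blocks were counted in GENCODE 44, and their part in the changes was not tested. Genes of the ZNF family, a list chosen after the data were seen, had 10 rises and 27 falls among 424 and a median of -0.16. It had 16 rises and 31 falls without the libraries numbered 3, and 13 and 35 with the replicate number as a block.

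The i-BET858 libraries of 4 h allow a comparison of 2 inhibitors at the same dose and time in 190 tested genes named by rule. Both comparisons use the same DMSO libraries, so only the direct contrast is a test. It was adjusted over all 17192 genes, of which 167 (0.971%) differed. Of 92 named genes that rose with i-BET151, 17 were lower with i-BET151 than with i-BET858 and none was higher. With the replicate number as a block, 62 were lower and none higher. Of 67 that fell, 1, RRS1, was less reduced by i-BET151 (-1.03 against -1.74); with the block, 9 were less and 2 more reduced. The small number among the genes that fell does not show that the compounds act alike on them.

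Among the 17, SERTAD1 had a mean of 784 CPM with i-BET151 and 1450 CPM with i-BET858 (difference in log2 of -0.89, edgeR adjusted p = 0.0237), and HEXIM1 436 and 669 CPM (-0.62, 0.0330). The others included NRARP (-1.19), SP6 (-1.35), SOCS1 (-1.26), NGFR (-1.03), BAMBI (-0.96), CDKN2B (-0.95) and BCL2L11 (-0.60). CDKN1A showed a difference of -1.01 that did not pass (edgeR adjusted p = 0.0756), as did MAFA (-1.11, 0.177). Among the falls, the difference was 0.02 for LIF, with a 95% interval of -1.41 to 1.45 on 6 residual degrees of freedom, 0.23 for TMEM100 (-0.05 to 0.51), 0.18 for FST (-0.15 to 0.52) and -0.21 for CA2 (-0.65 to 0.23), and none of these 4 passed the adjusted test. Of genes not called with i-BET151, BRD2 was higher with i-BET858 (0.76 against 1.33), H2AX too (0.97 against 1.44), and DIDO1 was lower (-0.73 against -1.55). CCNT2 was near 0 with i-BET151 and at -0.74 with i-BET858. All 4 passed the direct test.

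At 24 h a separate set of libraries, with its own DMSO controls, showed what was left of the 4 h changes. Of the 709 genes that rose at 4 h, 662 had the same sign at 24 h and 388 (54.7%) rose again, where 5.46% of all genes tested rose. Of the 511 that fell, 463 had the same sign and 225 (44.03%) fell again, where 8.36% of all fell. A change of the effect between the times, tested over 18154 genes in all 18 libraries, was found for 2508 (13.8%). Among the 709 rises it was smaller at 24 h in 118 and larger in 22, and among the 511 falls smaller in 117 and larger in 20. In the named genes, 56 changed, or 96 with the replicate number as a block. Since genes were chosen for being past a limit at 4 h, a lower value at 24 h is partly built into these counts.

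**Figure D5:**
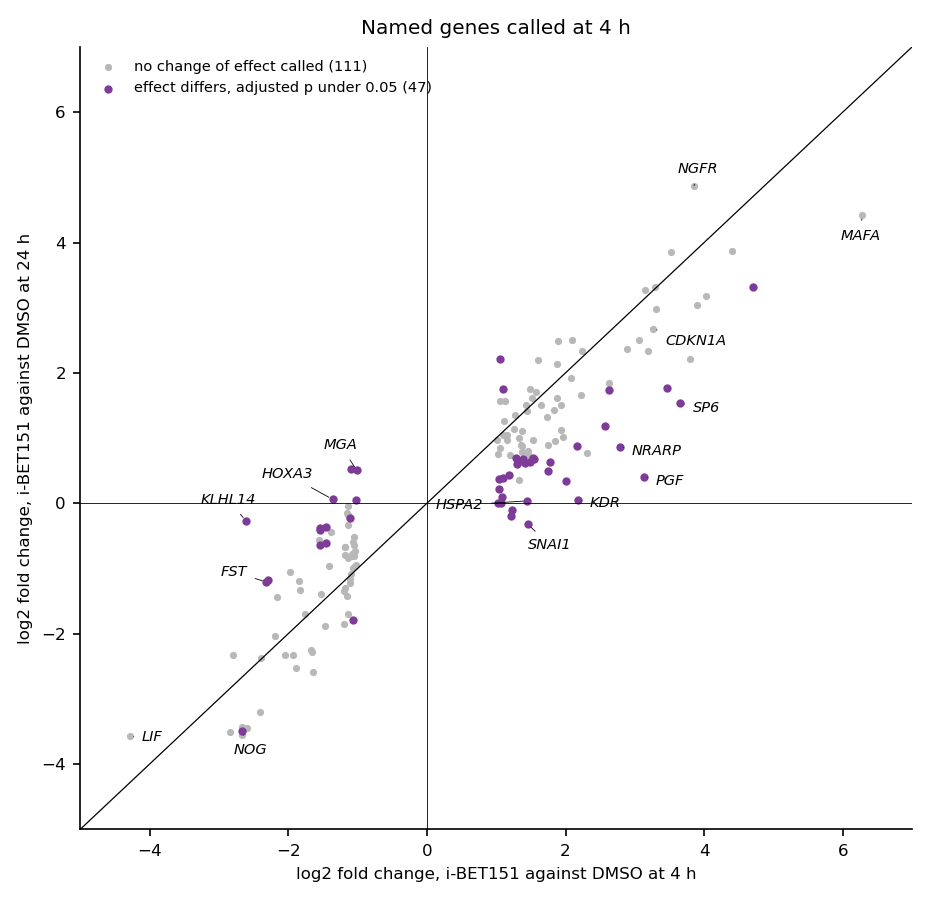
Log2 fold change with i-BET151 against DMSO at 4 h (x axis) and at 24 h (y axis) for 158 named genes called at 4 h, with purple for those whose effect differed between times; CCR1, without counts when treated, is left out. Most points lie between the diagonal and the horizontal line at 0, KLHL14, KDR and HSPA2 lie near 0 at 24 h, and NGFR and NOG lie beyond the diagonal.

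Some strong early changes were gone by 24 h. KLHL14 had a log2 fold change of -2.61 at 4 h and -0.27 at 24 h (edgeR adjusted p of the change, 4.16e-06), PGF 3.13 and 0.40, KDR 2.17 and 0.05, and HSPA2 1.45 and 0.04. HOXA3 went from -1.36 to 0.06, SNAI1 from 1.46 to -0.33, CCNE2 from 1.22 to -0.19 and MGA from -1.01 to 0.51. BCL2L1, lower at 4 h (-0.94), stood at 0.27. Others kept their direction. CDKN1A was at 3.26 and 2.68, HEXIM1 at 1.25 and 1.14, NGFR at 3.86 and 4.87, LIF at -4.29 and -3.58 and TRIM36 at 3.29 and 3.32. None of these 5 passed the test of the change, which does not show that the effects were equal at the 2 times. NOG (-2.67 to -3.50), CLDN1 (-1.07 to -1.78) and CDKN2D (1.09 to 1.75) moved further in the same direction. TK1, from the list of replication genes, remained uncalled, at 0.58 and 0.36. Of genes called at both times, 4 had opposite signs: DDIT4, ICAM5 and ZNF296 rose at 4 h and fell at 24 h, and DUBR fell and then rose. They were picked for this difference. ICAM5 and DUBR were each called at 4 h only with most libraries present, since leaving out any 1 of 5 libraries ended the call (edgeR adjusted p up to 0.121 and 0.0997).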

How the data were processed

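RNA was measured in OVCAR-3 cells by poly(A)-selected, paired-end RNA-seq. Per the study's methods and the submitters' processing notes, the authors aligned reads with STAR to GRCh38 (hg38) and deposited whole-number read counts per gene; the annotation and strand setting are not given in the sources used here. STAR's gene counting takes only uniquely placed reads, so near-identical copies can lose reads.

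The table of 4 h held 58825 genes, of which 99.4% of identifiers matched GENCODE 44, used for coordinates. From the deposited counts, edgeR 4.0.16 (R 4.3.3) with TMM scaling, its default filter on low counts and a quasi-likelihood fit of the 9 libraries of 4 h tested i-BET151 against DMSO and against i-BET858; all 18 libraries were fitted for the change with time. A call required a 2-fold difference and p under 0.05 after Benjamini-Hochberg adjustment. CPM were computed from the counts with TMM factors. Standard errors are those of the fit. The fits were tested on simulated data.

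Named genes had to average 1 or more in log2 CPM and move in 1 direction in 9 of 9 pairs of libraries. They were the 12 largest rises and falls, the 10 largest gains and losses in CPM, and up to 3 per direction and gene list, besides all members of 5 lists and the most abundant member of lists without calls. Some genes that the rule names are not reported here. Members and lists were chosen with earlier results of these data known. Library totals at 4 h ran from 27323969 to 37343752 counts for the groups compared. Floors of 3 counts cover counting error only.

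Same-numbered DMSO and i-BET151 libraries deviated together (correlations of 0.141, 0.361 and 0.302, although DMSO replicate 2 and i-BET151 replicate 1 also reached 0.205), so the numbers were taken to pair them, and blocking on the replicate was an alternative, besides DESeq2 1.42.0, other scalings, filters, thresholds and leaving out libraries. Promoters came from RefSeq (GRCh38.p14).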

Additional observations from a re-analysis of the deposited data

Results flagged for a closer look

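The effect of i-BET151 differed between 4 and 24 h in 56 genes named by rule, by the test of the change itself in edgeR (adjusted p over 18154 genes). The values in parentheses are the log2 fold change at 24 h minus that at 4 h. Of genes that rose at 4 h, 30 had a lower value at 24 h, 4 of them (SNAI1, CCNE2, BIK and CCN1) below 0. The larger of these shifts were those of PGF (-2.73), KDR (-2.13), SP6 (-2.13), NRARP (-1.92), SNAI1 (-1.79), RGS2 (-1.69), HMOX1 (-1.67), HSPA2 (-1.42), CCNE2 (-1.41), BAMBI (-1.39), ATP1B2 (-1.38), BIK (-1.35), SOCS1 (-1.29), SESN2 (-1.25) and NFKBIE (-1.15). The smaller shifts were those of CCN1 (-1.08), PMAIP1 (-1.02), MED26 (-0.99), SERTAD1 (-0.89), SOX13 (-0.87), VDR (-0.85), HES2 (-0.84), HLA-E (-0.82), PER1 (-0.79), NFIL3 (-0.76), PIM2 (-0.71), MKNK2 (-0.71), BAG3 (-0.69), CDKN2B (-0.68) and ERRFI1 (-0.59). PGF and KDR, a ligand and a receptor of the VEGF family, and the zinc finger factor SP6 headed them. Of the genes that rose, CDKN2D (0.65) and MAP1LC3B2 (1.17) had larger effects at 24 h.

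Of genes that fell at 4 h, 13 had a higher value at 24 h, namely KLHL14 (2.34), SOX5 (1.62), MGA (1.52), HOXA3 (1.42), SUV39H1 (1.16), SETDB1 (1.14), IL1R1 (1.11), FST (1.11), HDAC9 (1.09), SRSF8 (1.07), OVOL2 (0.90), CLOCK (0.88) and CLIC5 (0.85), of which SOX5, MGA, HOXA3 and SRSF8 were above 0 at 24 h. The larger falls at 24 h were those of NOG (-0.83) and CLDN1 (-0.72). Genes not called at 4 h and changed between the times were MEPCE (-0.81), CDKN2A (-1.12), CRABP2 (-0.62), RPS3 (-0.66), NORAD (1.40), DIDO1 (0.61), TOPBP1 (0.81), BCL2L1 (1.21) and SMAD4 (0.57). Of these, DIDO1 and TOPBP1 kept their sign and the other 7 had opposite signs at the 2 times.

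In 4 genes picked for it after their values were seen, the effect was called at both times and in opposite directions, the changes being those of DDIT4 (-2.14), ICAM5 (-2.42), ZNF296 (-2.54) and DUBR (2.15).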

How the results depend on the processing

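The count of 1220 called genes (709 higher, 511 lower) ran from 1087 to 1521 with DESeq2, other scalings, other filters, other sets of libraries in the fit or the replicate number as a block, and from 965 to 1416 (563 to 810 higher, 396 to 606 lower) when any 1 of the 6 libraries was left out. With total library size as scaling, 636 genes rose and 593 fell, so that the share of rises went from 58.1% to 51.7%. The libraries numbered 1 and 2 alone gave 1881 (1127 higher). An adjusted p without a fold limit gave 2791 (1342 higher, 1449 lower) and a fold of at least 1.5 gave 2274 (1102 higher, 1172 lower). These settings lower the limit or remove libraries by construction. The number of named genes that differed between the inhibitors was 22, and it was 87 with the replicate block and 49 with the libraries numbered 1 and 2 alone. The number whose effect changed with time was 56, and it was 96 and 93 under the same settings. Among called named genes the block ended only the call of PMAIP1. The cause of these shifts was not tested. 36 of 159 called named genes lost their call in at least 1 alternative, 34 of them when a library was left out. The fits with a library left out did not use the replicate block.

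Of the list medians near 0, those of P-TEFb and 7SK, mitosis, BCL2, serous lineage, epithelial-mesenchymal, MAPK feedback and WNT genes turned negative with total library size, those of BCL2 and MAPK feedback genes also with the block, and those of the IL6 list, P-TEFb and 7SK, mitosis and MAPK feedback genes with the libraries numbered 1 and 2 alone.

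Reversals occurred in genes that were not called and lay near 0. CCNT1 was at -0.0359 with total library size and -0.10 with the libraries numbered 1 and 2, and from -0.18 to 0.15 with 1 library left out. CCNT2 was at -0.0560, at -0.0049 without a filter on low counts, at -0.0405 with the libraries numbered 1 and 2, and from -0.0744 to 0.10. The integrin ITGB5 was at -0.0052 with total library size and -0.10 with the libraries numbered 1 and 2, and from -0.33 to 0.29. With 1 library left out, BRD3 ran from -0.0389 to 0.24 and VWF from -0.67 to 0.0086. The cause was not tested. A count of 3 in a library corresponds to 0.0803 to 0.110 CPM, so changes in genes below about that level were not detectable at this depth.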
